A study of Mus musculus with 5 samples.

Results

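Small nucleolar RNA (snoRNA) host genes are transcripts whose introns are trimmed into snoRNAs. The 8 described here, Gas5, Zfas1, Snhg1, Snhg3, Snhg5, Snhg6, Snhg8 and Snhg12, were taken by gene name from the annotated rows of the deposited gene tables, which hold 57186 annotated genes. All 8 were found in all 5 libraries, and all 8 passed the filter on low values (TPM no lower than 1 in 2 or more libraries) that left 16254 genes for testing. The cells were follicular regulatory T (Tfr) cells of mouse spleen, sorted as live CD4+ cells positive for Foxp3, CXCR5, PD-1 and ICOS, 21 days after imiquimod, which activates TLR7. The WT group held 3 libraries from mice with a GFP reporter of Foxp3 and an intact Cebpa gene. The Cebpa_KO group held 2 libraries from mice in which Cre driven by Foxp3 deletes the floxed Cebpa alleles. Both groups received imiquimod, and ages are not given in the sources used. Since a library is a pool of several mice, the spread behind each p-value is one between pools, and the Foxp3 allele differs between the groups along with Cebpa.

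Most snoRNAs of mammals are not transcribed on their own. They lie in introns of host genes, are released when the intron is spliced and trimmed, and then guide chemical modification of ribosomal RNA as part of a ribonucleoprotein (snoRNP). The spliced host RNA often encodes no long protein, tends to be exported and is commonly removed by nonsense-mediated decay during translation. Several host genes start with a run of pyrimidines, the 5′TOP feature of the ribosomal protein genes, whose translation responds to mTORC1. Gas5 was found as a growth-arrest transcript, and the human RNA can bind the DNA-binding domain of the glucocorticoid receptor as a decoy.

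The intronic products themselves are short. Box C/D snoRNAs carry a C box near the 5′ end and a D box near the 3′ end, on which the snoRNP assembles, and capitals mark the TGATG of the C box and the CTGA of the D box below. These 4 are shown because their rows are discussed with their hosts: Snord78, Snord80 and Snord47 lie inside Gas5 and Snord12 inside Zfas1. Sequences are from GENCODE M21 transcripts, matched by gene ID, whereas positions are those of the deposited tables on mm39. All 4 are on the plus strand: Snord78 at chr1:160864554-160864619, Snord80 at chr1:160865171-160865251, Snord47 at chr1:160865652-160865728 and Snord12 at chr2:166907196-166907285.
Snord78: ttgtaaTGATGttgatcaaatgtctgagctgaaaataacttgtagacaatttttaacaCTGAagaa
Snord80: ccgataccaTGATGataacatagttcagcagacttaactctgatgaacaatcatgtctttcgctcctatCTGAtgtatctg
Snord47: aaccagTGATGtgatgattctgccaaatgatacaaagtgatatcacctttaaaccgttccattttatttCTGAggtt
Snord12: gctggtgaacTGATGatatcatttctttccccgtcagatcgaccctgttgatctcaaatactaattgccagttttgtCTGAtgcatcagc

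RefSeq start windows (GRCm38.p6, 250 bases before to 50 after each start) were matched by symbol for 7 of the 8 host genes, the exception being Snhg6. The bases from 40 before to 20 after the start are shown for 5 of them, because these are the hosts with TATA between 40 and 20 bases before the start on the given strand. Capitals mark that TATA and, where it has at least 3 bases, the run of C and T that begins at the start. Gas5 has another start window with no such TATA, which is not shown. The stretches are Gas5 at chr1:161035126-161035185 (plus), Snhg8 at chr3:123508317-123508376 (minus), Snhg12 at chr4:132308638-132308697 (plus), Snhg5 at chr9:88522878-88522937 (minus) and Snhg1 at chr19:8723447-8723506 (plus).
Gas5: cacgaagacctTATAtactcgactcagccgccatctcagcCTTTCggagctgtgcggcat
Snhg8: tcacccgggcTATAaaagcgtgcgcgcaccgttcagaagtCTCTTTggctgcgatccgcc
Snhg12: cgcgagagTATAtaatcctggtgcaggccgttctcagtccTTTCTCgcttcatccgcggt
Snhg5: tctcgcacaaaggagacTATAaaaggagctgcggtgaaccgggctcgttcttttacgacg
Snhg1: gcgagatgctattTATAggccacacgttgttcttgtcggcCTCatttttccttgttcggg

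TATA in that position was thus present in 5 of 7 matched host genes, against 6.54% of the 27025 genes in the RefSeq table. The first 5 bases were all C or T in 3 of 7, namely Gas5, Snhg8 and Snhg12, against 5.28% of genes. CCAAT on either strand of the whole window occurred in 3 of 7, against 41.1% of genes. The palindrome CACGTG, the E-box bound by MYC, occurred in 0 of 7, against 8.09% of genes. TTNNGCAA, a C/EBP-type motif, also occurred in 0 of 7 on either strand, against 12.2% of genes. With only 7 genes, a count of 0 is near the share of all genes for CACGTG and for TTNNGCAA. Such matches describe these letters in these windows and were chosen after the sequences had been read.

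Aligned depth was 6.76 to 7.09 gigabases and 15250 to 15691 genes had a TPM of at least 1 per library. Cebpa was at 12.9, 17.7 and 12.8 scaled TPM in WT against 0.317 and 0.550 in Cebpa_KO (log2 difference of -3.42, SE 0.20, limma adjusted p = 0.00371; exact two-sided permutation p = 0.1, the smallest that 10 splits allow). Leaving out Cebpa_KO replicate 2 gave -3.54 with a limma adjusted p of 0.0512. Of 9 Tfr markers, 7 were lower in Cebpa_KO and none was higher, with 3 lower without WT replicate 1 and 1 without WT replicate 2. Foxp3 went from 98.3 ± 13.4 in WT (SD, n = 3) to 6.16 ± 0.821 in Cebpa_KO (SD, n = 2), in cells that were Foxp3+ by the sort. The Y-linked Ddx3y was at 42.0 to 46.4 in WT and 0 in Cebpa_KO, and Xist at 10.7 to 11.4 in Cebpa_KO and 0.0220 or less in WT, so sex and genotype cannot be told apart. WT replicate 3 stood apart from the other WT libraries. The sum of 11 dissociation stress genes was 1050 and 1135 in WT replicates 1 and 2, 4494 in WT replicate 3, and 5438 and 5727 in Cebpa_KO. Blood and other immune markers also varied between libraries, with none at 0 in every library. The sum of 6 erythroid markers was 61.0 to 710 in WT and 235 to 2137 in Cebpa_KO, of 8 B lineage markers 94.0 to 648 and 113 to 436, of 7 neutrophil and granule markers 11.8 to 75.3 and 68.2 to 319, of 7 myeloid markers 278 to 351 and 259 to 317, and of 6 CD8 and NK markers 54.1 to 68.6 and 30.3 to 31.3. In each of the erythroid, B lineage, neutrophil and myeloid sums, Cebpa_KO replicate 1 was above Cebpa_KO replicate 2 and WT replicate 3 was above the other WT libraries. The CD8 and NK sum instead separated the groups, with both Cebpa_KO libraries below every WT library. The sum of 16 cell cycle genes was 3396 and 3350 in WT replicates 1 and 2, 1889 in WT replicate 3, and 4135 and 4164 in Cebpa_KO.

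Snhg1 was the only host gene of the 8 called different, and it was higher in Cebpa_KO. Values are TPM, which is per length, after scaling each library by its median ratio to the others, and the test was limma on log2(scaled TPM + 1) with p-values adjusted over all 16254 genes at a threshold of 0.05. That 1 of 8 stood beside 9.93% of all tested genes called higher, and the 0 of 8 called lower beside 9.82%. At an unadjusted p under 0.05, 4 of 8 (Snhg1, Snhg3, Snhg6 and Snhg12) were higher and 0 lower, beside 18.8% of all tested genes higher and 18.8% lower at that p. In 5 of 8 hosts (Snhg1, Snhg3, Snhg5, Snhg6 and Snhg12) both Cebpa_KO libraries were above every WT library, beside 28.7% of all tested genes, and in none were both below, beside 28%. The log2 fold change was above 0 in 8 of 8, beside 8281 of the 16254 tested genes, and its median was 0.47, beside 0.012 over all tested genes. In bulk samples, a change in the cells that make up the sort and a change in RNA per cell cannot be told apart.

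**Figure D1:**
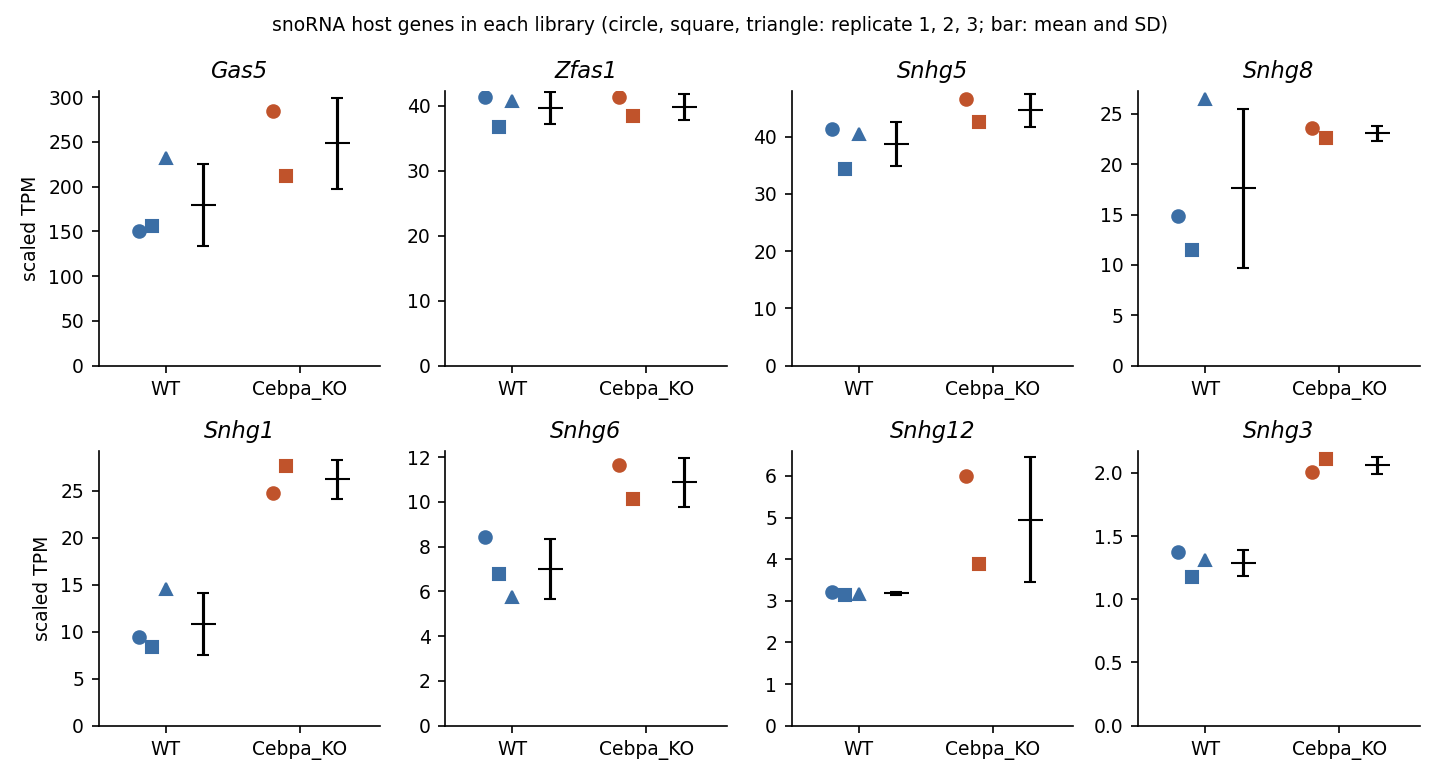
Scaled TPM of the 8 host genes in each library (linear axes from 0, a separate scale per gene), with the WT libraries in blue, the Cebpa_KO libraries in orange, and black bars for the mean and SD. Both Cebpa_KO libraries sit above all WT libraries for Snhg1, Snhg3, Snhg5, Snhg6 and Snhg12, and WT replicate 3 (triangle) is the highest WT library for Gas5, Snhg1 and Snhg8.

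Snhg1 (ENSMUSG00000108414, mm39 chromosome 19, 8700801 to 8703811, plus strand), host of a cluster of box C/D snoRNAs, was at 9.43, 8.36 and 14.5 scaled TPM in WT. It was at 24.7 and 27.6 in Cebpa_KO. Every Cebpa_KO value lay above every WT value, and WT replicate 3 was the WT library nearest to them. The mean was 10.8 ± 3.30 in WT (SD, n = 3) and 26.2 ± 2.05 in Cebpa_KO (SD, n = 2), a ratio of 2.43, and the difference on log2(scaled TPM + 1) was 1.24 (standard error 0.24, limma adjusted p = 0.0253). The direction was the same under all 18 alternatives, with log2 fold changes of 0.80 to 1.46, and the gene passed in 10 of them, with limma adjusted p from 0.00683 to 0.150. Leaving out WT replicate 1, WT replicate 2, Cebpa_KO replicate 1 or Cebpa_KO replicate 2 ended the call, with limma adjusted p of 0.0695, 0.0704, 0.131 and 0.150, as did WT replicate 3 taken as the only WT library (0.80, adjusted p = 0.0531 by limma). Without WT replicate 3 the log2 fold change was 1.45 (limma adjusted p = 0.0070).

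Gas5 (ENSMUSG00000053332, chromosome 1, 160861992 to 160866116, plus strand) was the most abundant of the 8 in every library. It made up 55.6% to 64.6% of their summed TPM, which was 270, 258 and 364 in WT and 440 and 359 in Cebpa_KO. Gas5 itself was at 150, 156 and 232 in WT against 284 and 212 in Cebpa_KO. WT replicate 3 lay between the Cebpa_KO libraries, so the groups overlapped. Its log2 fold change of 0.48, with a standard error of 0.23, did not pass (limma adjusted p = 0.196). It was 0.67 without WT replicate 3 (limma adjusted p = 0.0377) and 0.08 with WT replicate 3 alone as the WT group. Coverage per base, in place of TPM, gave 168, 159 and 181 in WT and 244 and 223 in Cebpa_KO, with no overlap and a log2 fold change of 0.45 (limma adjusted p = 0.0393).

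Snhg8 (ENSMUSG00000104960, chromosome 3, 123301194 to 123302053, minus strand), the shortest gene of the 8 at 860 bp, showed the same split among WT libraries. It was at 14.8, 11.5 and 26.5 in WT against 23.6 and 22.6 in Cebpa_KO. WT replicate 3 was above both Cebpa_KO libraries, and the other WT libraries were below them. The log2 fold change of 0.46 with a standard error of 0.34 did not pass (limma adjusted p = 0.371). It was 0.77 without WT replicate 3 (limma adjusted p = 0.0279) and -0.20, the other direction, with WT replicate 3 alone as the WT group. For Gas5, Snhg1 and Snhg8, WT replicate 3 was 1.51, 1.63 and 2.01 times the mean of the other WT libraries. Hspa1a, the stress-induced HSP70 gene, was at 0.911 and 0.684 in WT replicates 1 and 2, 690 in WT replicate 3, and 1147 and 1238 in Cebpa_KO. Its part in the values of these 3 host genes was not tested.

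Snhg6 (ENSMUSG00000098234, chromosome 1, 9926809 to 10014398, minus strand) ran the other way in that library. It was at 8.42, 6.79 and 5.77 in WT, where WT replicate 3 was lowest, at 0.758 times the mean of the others. It was at 11.7 and 10.1 in Cebpa_KO, above every WT value. The log2 fold change of 0.58 with a standard error of 0.18 did not pass (limma adjusted p = 0.0784), and its size fell to 0.27 with coverage per base. That coverage was 6.08, 5.06 and 4.33 in WT and 7.05 and 5.83 in Cebpa_KO, so the groups overlapped by coverage.

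Snhg12 (ENSMUSG00000086290, chromosome 4, 132035932 to 132038762, plus strand) was at 3.22, 3.14 and 3.17 in WT against 6.01 and 3.89 in Cebpa_KO. The WT libraries were close together and the Cebpa_KO libraries far apart, with Cebpa_KO replicate 1 the highest. The log2 fold change of 0.49 with a standard error of 0.19 did not pass (limma adjusted p = 0.132). Snhg3 (ENSMUSG00000085241, chromosome 4, 132075325 to 132080997, minus strand), the least abundant of the 8, was at 1.38, 1.17 and 1.31 in WT against 2.01 and 2.11 in Cebpa_KO. Here the groups were apart and each was narrow, and the log2 fold change of 0.42 with a standard error of 0.14 did not pass (limma adjusted p = 0.0945). Of its 5673 bp, 5592 bp lie within Rcc1 on the same strand, so reads of this pair cannot be told apart with certainty.

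Snhg5 (ENSMUSG00000097195, chromosome 9, 88377321 to 88405615, minus strand) was at 41.3, 34.3 and 40.5 in WT against 46.6 and 42.6 in Cebpa_KO, apart by little. The log2 fold change of 0.20, standard error 0.12, did not pass (limma adjusted p = 0.260). Zfas1 (ENSMUSG00000074578, chromosome 2, 166904854 to 166907783, plus strand), antisense to the 5′ end of Znfx1, was at 41.4, 36.8 and 40.7 in WT against 41.3 and 38.5 in Cebpa_KO. Both Cebpa_KO values lay within the WT range, with a log2 fold change of 0.01, a 95% confidence interval of -0.23 to 0.25 and a limma adjusted p of 0.947. For Zfas1 the sign turned in 3 alternatives, at -0.04 in each.

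The order of the levels in WT was Gas5 (179 ± 45.3), Zfas1 (39.6 ± 2.48), Snhg5 (38.7 ± 3.81), Snhg8 (17.6 ± 7.88), Snhg1 (10.8), Snhg6 (6.99 ± 1.34), Snhg12 (3.18 ± 0.0427) and Snhg3 (1.29 ± 0.103), as means with SD over 3 libraries. Neighbours in this order overlapped over libraries for Zfas1 with Snhg5, Snhg8 with Snhg1, and Snhg1 with Snhg6. In Cebpa_KO the order was Gas5 (248 ± 50.9), Snhg5 (44.6 ± 2.83), Zfas1 (39.9 ± 2.01), Snhg1 (26.2), Snhg8 (23.1 ± 0.752), Snhg6 (10.9 ± 1.10), Snhg12 (4.95 ± 1.49) and Snhg3 (2.06 ± 0.0700), and no neighbours overlapped over 2 libraries. Snhg5 and Zfas1 thus stood in the reverse order of means, as did Snhg1 and Snhg8, and both pairs overlapped in WT. The libraries also ranked unevenly: Cebpa_KO replicate 1 held the highest value of 4 hosts, Cebpa_KO replicate 2 that of 2, and WT replicate 2 the lowest value of 6.

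Genes next to a host can share its promoter or its reads. The tested genes that overlap a host or end within 5 kb of it were 8, and of these only Rcc1, the nucleotide exchange factor of Ran that overlaps Snhg3, was called. Rcc1 was at 76.4, 79.6 and 60.0 in WT against 143 and 134 in Cebpa_KO (log2 difference of 0.94, SE 0.14, limma adjusted p = 0.0147). Slc3a2, the heavy chain of the CD98 amino acid transporters, lies 68 bp from Snhg1 on the other strand. It was at 234, 215 and 303 in WT against 362 and 361 in Cebpa_KO. The groups were apart, with WT replicate 3 the highest WT library as for Snhg1, and the log2 fold change of 0.54 with a standard error of 0.16 did not pass (limma adjusted p = 0.0670).

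Around the other hosts none passed. Zbtb37, which overlaps Gas5 by 428 bp on the other strand, had a log2 fold change of -0.94 (limma adjusted p = 0.0668). Znfx1, which overlaps Zfas1 by 82 bp, had -0.42, and Trnau1ap, 312 bp from Snhg12, had 0.22. Sgk3, a kinase gene overlapping Snhg6 by 44262 bp on the other strand, had -0.47, and Phactr4, near Snhg3, had -0.32. As the sources used name no strand setting, reads of overlapping genes on opposite strands cannot be told apart either.

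**Figure D2:**
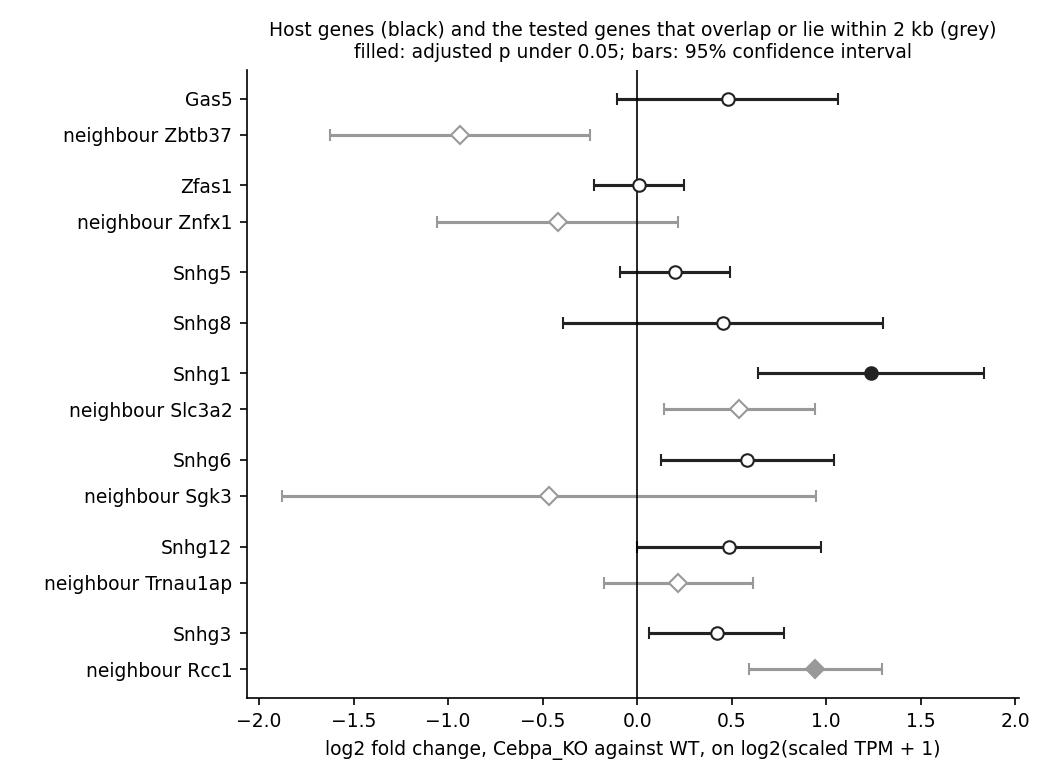
Log2 fold changes of Cebpa_KO against WT with 95% confidence intervals (x axis, on log2(scaled TPM + 1)) for the 8 host genes (circles, black) and the 6 tested genes that overlap them or lie within 2 kb (diamonds, grey), with filled symbols for a limma adjusted p under 0.05. The filled symbols are Snhg1 at 1.24 and Rcc1 at 0.94.

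The tables also hold rows for the snoRNAs inside the hosts, 30 in all after overlapping duplicates were counted once, of which 27 passed the filter. These libraries were made by full-length cDNA synthesis of the kind primed on poly(A), so such rows count reads over the snoRNA's stretch of the host, whether from unspliced host RNA, retained introns or the snoRNA, and are no measure of mature snoRNAs. Of the 27 tested, 3 were called higher, near the 9.93% of all tested genes, and 0 lower, beside 9.82%. At an unadjusted limma p under 0.05, 7 were higher and 0 lower, beside 18.8% of all tested genes in each direction. In 21 of 30 the Cebpa_KO mean was above the WT mean, mostly rows of Gas5 (9 of 9) and Snhg1 (8 of 8). The rest were 2 of 3 rows in Zfas1, 1 of 2 in Snhg3 and the 1 row of Snhg8, with none in Snhg5, Snhg6 or Snhg12. The rows of a host share its reads and are not independent.

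In Gas5, all 9 rows had a higher mean in Cebpa_KO, by 1.17 to 1.68 times, and 2 were called. Snord78 was at 63.1, 52.5 and 67.8 in WT against 94.6 and 98.0 in Cebpa_KO (log2 difference of 0.66, SE 0.12, limma adjusted p = 0.0251). Gm50452, the row that follows it 3′, was at 16.8, 15.7 and 20.8 in WT against 27.8 and 31.8 in Cebpa_KO (log2 difference of 0.72, SE 0.15, limma adjusted p = 0.0304). Both rows separated the groups, as did Gm22357 and Gm23212, which were not called. The Gas5 gene row separated them by coverage per base but not by TPM. Snord80 was at 13.9, 9.14 and 17.4 in WT against 19.7 and 16.9 in Cebpa_KO, and Snord47 at 7.17, 13.8 and 20.1 against 23.1 and 18.1, so both overlapped. Summed over the 9 rows, Gas5 gave 220, 196 and 317 in WT and 391 and 369 in Cebpa_KO.

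In Snhg1, all 8 rows had a higher mean in Cebpa_KO, by 1.03 to 1.97 times, and 1 was called. That row, Snord22, was at 3.00, 4.00 and 4.42 in WT against 7.36 and 7.48 in Cebpa_KO (log2 difference of 0.82, SE 0.18, limma adjusted p = 0.0331). The sum over the 8 rows was 29.6 and 29.1 in WT replicates 1 and 2, 67.6 in WT replicate 3, and 67.4 and 68.7 in Cebpa_KO. By this sum WT replicate 3 was level with Cebpa_KO, whereas in the Snhg1 gene row it was lower, at 14.5 against 24.7 and 27.6. The single rows differed. In 4 of the 8, Snord22 among them, both Cebpa_KO libraries were above every WT library. In Gm22744, WT replicate 3 was at 10.1 against 5.95 and 6.33 in Cebpa_KO. Rows of the other hosts did not pass. The 2 rows of Snhg5 summed to 17.5, 15.3 and 12.5 in WT and to 11.8 or less in both Cebpa_KO libraries. The 4 rows of Snhg12 summed to 3.08, 4.81 and 3.92 against 3.03 and 1.89, with Cebpa_KO replicate 1 nearly level with WT replicate 1. Of those 4 only Snora61 was tested (log2 fold change of -0.37, limma adjusted p = 0.219), and Snora16a was at 0 in every library. The Snhg5 and Snhg12 gene rows had higher values in Cebpa_KO, without passing, but the Snhg12 contrast rests on low values. The 3 rows of Zfas1, Snord12 among them, summed to 8.28, 5.28 and 9.50 in WT against 9.28 and 8.35 in Cebpa_KO.

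**Figure D3:**
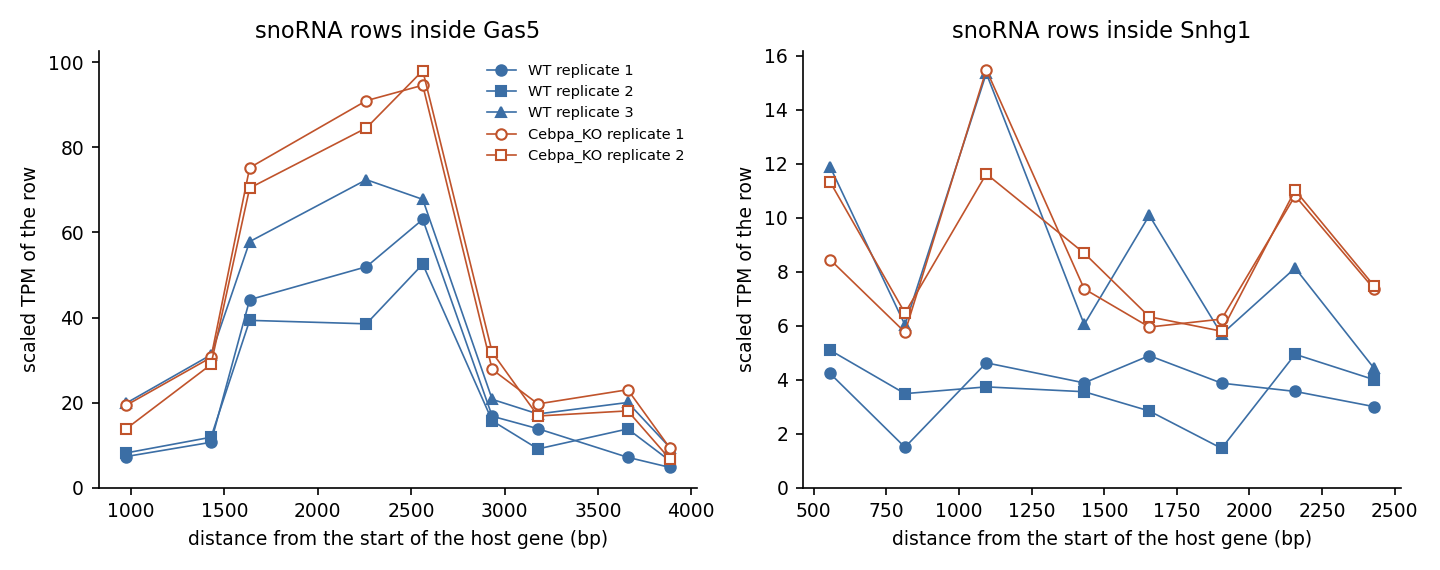
Scaled TPM (y axis, linear from 0) of the snoRNA rows inside Gas5 (left, 9 rows) and Snhg1 (right, 8 rows), against their distance from the start of the host gene in bp, with WT libraries filled blue and Cebpa_KO libraries open orange, and lines joining the rows of a library. In Gas5 the Cebpa_KO libraries are highest at Snord78 (94.6 and 98.0), and in Snhg1 the groups overlap in 4 of the 8 rows.

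The other genes of the snoRNA pathway were read from lists of known members. Counts called in each list below stand beside 9.93% of all tested genes called higher and 9.82% called lower. The list of other non-coding host genes had 12 tested rows for 11 genes, as Snhg4 has 2 gene IDs, and it includes Mir17hg, a microRNA host. Of these rows, 2 were higher and 0 lower in Cebpa_KO, with a median log2 fold change of 0.45. The count was 1 without WT replicate 1, 0 without WT replicate 2 and 6 without WT replicate 3. Snhg7 was at 1.80, 0.947 and 1.33 in WT against 4.44 and 5.17 in Cebpa_KO (log2 difference of 1.31, SE 0.20, limma adjusted p = 0.0161). Snhg15 was at 20.5, 16.6 and 31.3 in WT against 43.9 and 53.0 in Cebpa_KO (log2 difference of 1.10, SE 0.27, limma adjusted p = 0.0459). Like Snhg1, both were apart between the groups, and Snhg15 had its highest WT value in WT replicate 3.

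Of 29 protein-coding host genes, 14 were higher and 0 lower, with a median of 0.47, nearly that of the 8 non-coding hosts. Ncl, nucleolin, a nucleolar protein of ribosome assembly, was at 138, 135 and 141 in WT against 293 and 261 in Cebpa_KO (log2 difference of 1.00, limma adjusted p = 0.00578). Hspa9, the mitochondrial HSP70, was at 105, 101 and 113 against 243 and 228 (1.14, limma adjusted p = 0.00543). Dkc1, dyskerin, the pseudouridine synthase of box H/ACA snoRNPs and an X-linked gene, was at 72.6, 66.9 and 70.4 against 135 and 129 (0.91, limma adjusted p = 0.00616). These 3 have the smallest p of the list, which favours genes with little spread in WT. Other called genes of the list had their highest WT value in WT replicate 3, as Gas5, Snhg1 and Snhg8 did, among them Hspa8 (976, 862 and 1432 against 1977 and 1934) and Gnl3 (38.2, 31.5 and 50.4 against 104 and 94.9).

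Of 9 snoRNP proteins, which bind the snoRNAs, 8 were higher and 0 lower, with a median of 0.93. Gar1 and Nhp2, of the H/ACA core, had log2 fold changes of 1.05 (limma adjusted p = 0.00438) and 1.08 (limma adjusted p = 0.00543). Fbl, fibrillarin, the methyltransferase of box C/D snoRNPs, was at 127, 129 and 125 in WT against 254 and 230 in Cebpa_KO (0.92, limma adjusted p = 0.00611). Nop58, a box C/D core protein, had 0.88 and did not pass (limma adjusted p = 0.0545). Of 12 tested snoRNP assembly factors, 6 were higher and 0 lower, with a median of 0.55. Among them Nolc1, a nucleolar chaperone of snoRNPs, had 1.24 (limma adjusted p = 0.00829), Znhit6, a box C/D assembly factor, 0.86 (0.0153) and Ruvbl1, an ATPase of the R2TP complex, 0.82 (0.00960).

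The next lists bear on the fate of the spliced host RNA. Of 18 nonsense-mediated decay factors, 4 were higher and 1 lower (Pnrc2 at -0.54, limma adjusted p = 0.0422), with a median of -0.15. The log2 fold change was above 0 in only 5 of the 18. The 3 with the smallest p belong to the exon junction complex: Magoh at 0.57 (limma adjusted p = 0.0129), Magohb at 0.77 (0.0178) and Eif4a3 at 0.42 (0.0203). Of 20 5′TOP genes outside the Rpl and Rps families, 10 were higher and 0 lower, with a median of 0.33. Npm1, nucleophosmin, had 1.14 (limma adjusted p = 0.00855), Rack1, a ribosome-bound scaffold, 0.72 (0.00682) and Btf3, of the nascent chain complex, 0.52 (0.0127). Of 15 tested mTORC1 pathway genes, 1 was higher and 4 lower, with a median of -0.25. Sesn2, an inhibitor of mTORC1 on amino acid shortage, had -0.79 (limma adjusted p = 0.0244). Rps6kb2, an S6 kinase gene, had -0.45 (limma adjusted p = 0.0255) and Eif4ebp2, a repressor of cap-dependent translation, -0.63 (0.0304). Their related genes went the other way. Rps6kb1 was the gene called higher, at 0.455 (limma adjusted p = 0.0314), and Eif4ebp1 had 0.325, which did not pass (limma adjusted p = 0.0592).

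Of 9 tested genes of the glucocorticoid receptor and its targets, the pathway in which Gas5 RNA has been studied, 0 were higher and 3 lower, with a median of -0.51. These counts depended on WT replicate 3, without which 3 were higher (Dusp1, Sgk1 and Per1) and 4 lower, and without WT replicate 2 they were 0 and 1. With the replicate block, where WT replicate 3 adds nothing to the group difference, they were 2 and 2. Dusp1, a MAP kinase phosphatase gene, was at 202, 215 and 1169 in WT against 830 and 982 in Cebpa_KO, with WT replicate 3 the highest of all, and its log2 fold change of 1.28 did not pass (limma adjusted p = 0.296). Sgk1, a kinase gene, was at 16.4, 18.2 and 41.4 against 44.7 in both Cebpa_KO libraries (0.92, limma adjusted p = 0.159, not passed). Txnip, an inhibitor of thioredoxin, was at 174, 165 and 167 in WT against 80.7 and 79.0 in Cebpa_KO (log2 difference of -1.07, limma adjusted p = 0.00438). Ddit4, an inhibitor of mTORC1, had -1.01 (limma adjusted p = 0.0154) and Fkbp5, a chaperone of the receptor, -0.60 (limma adjusted p = 0.0228). The receptor gene Nr3c1 was at 29.6, 29.8 and 37.1 in WT against 21.3 and 22.9 in Cebpa_KO, with -0.51, which did not pass (limma adjusted p = 0.0504). These targets respond to other signals too. The lists are not separate: Dkc1 and Nop56 stand both as protein-coding hosts and as snoRNP proteins, and 4 genes (Eef1b2, Eef2, Rack1 and Tpt1) both as protein-coding hosts and as 5′TOP genes. At an unadjusted limma p under 0.05, 18.8% of all tested genes were higher and 18.8% lower. The counts higher and lower at that p were 6 and 0 for the non-coding hosts, 21 and 0 for the protein-coding hosts and 9 and 0 for the snoRNP proteins. They were 11 and 0 for the assembly factors, 13 and 0 for the 5′TOP genes and 0 and 5 for the glucocorticoid receptor list. The decay factors, at 4 and 3 of 18, and the mTORC1 genes, at 3 and 4 of 15, were near the share of all tested genes. Leaving out WT replicate 2 lowered the count of higher genes from 6 to 3 for the assembly factors, 10 to 2 for the 5′TOP genes and 4 to 1 for the decay factors, and left no mTORC1 gene passing. For the mTORC1 genes, 0 were higher and 2 lower without WT replicate 1, and 2 and 3 without WT replicate 3. No decay factor was lower without WT replicate 1 or 2. With either Cebpa_KO library left out, none of the genes in these lists passed.

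**Figure D4:**
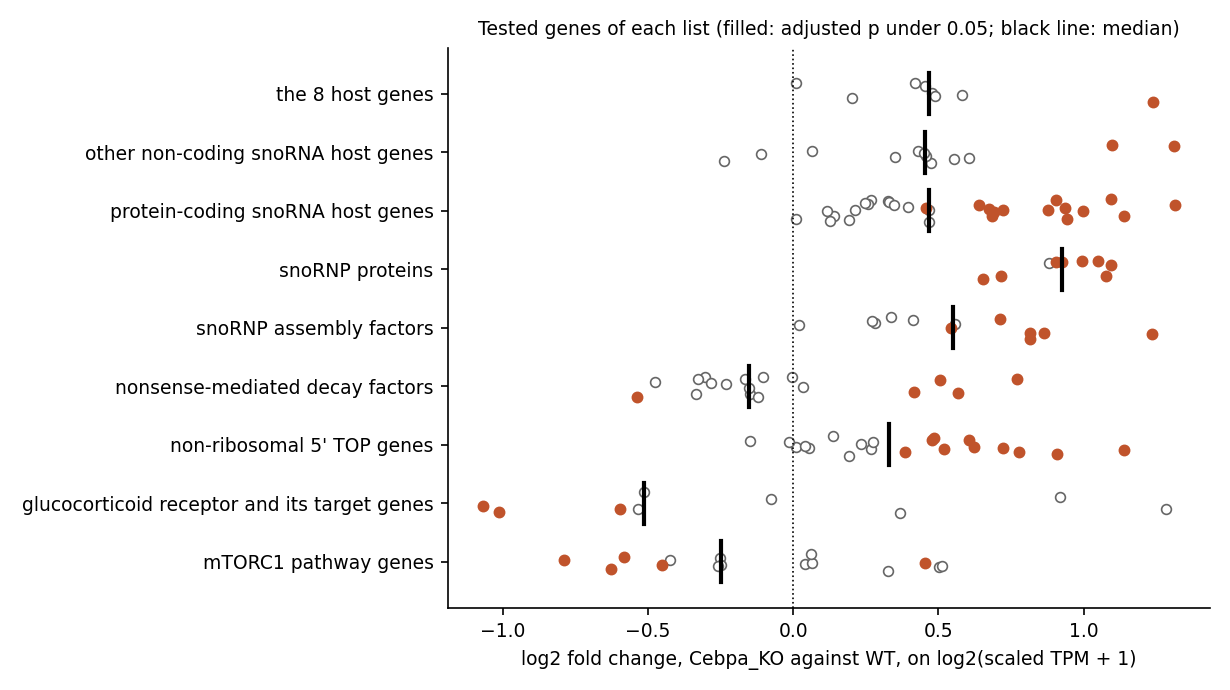
Log2 fold changes of Cebpa_KO against WT (x axis, on log2(scaled TPM + 1)) for the tested genes of each list, 1 point per gene ID, filled where the limma adjusted p was under 0.05, with a black line at the median. Medians are 0.47 for the 8 host genes, 0.93 for the 9 snoRNP proteins and -0.51 for the 9 genes of the glucocorticoid receptor list.

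The genes whose profile over the 5 libraries was most like the mean profile of the 8 hosts were Taf7, Snhg4, Iqcb1, Polr1c and Dnajc11, among 9473 genes compared. Likeness was the root mean squared distance of centred log2 values, which ran from 0.0179 for Taf7 to 0.0372 for Dnajc11, whereas the hosts themselves lay 0.111 (Snhg3) to 0.409 (Snhg1) from their mean. The mean centred profile was -0.20, -0.36 and -0.02 in WT and 0.37 and 0.22 in Cebpa_KO. Snhg4, itself a snoRNA host gene, has 2 gene IDs in the tables. The similar one, ENSMUSG00000117869, was at 9.35, 8.37 and 10.4 in WT against 14.1 and 12.7 in Cebpa_KO. The other, ENSMUSG00000117694, was higher and had overlapping groups, at 99.1, 96.5 and 95.1 against 105.6 and 97.3 (log2 difference of 0.07, limma adjusted p = 0.576). Polr1c, a subunit of RNA polymerases I and III, was at 58.2, 51.7 and 62.7 against 83.6 and 79.0 (log2 difference of 0.50, limma adjusted p = 0.0326).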

How the data were processed

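Libraries were made with SMART-Seq v4 and Nextera XT, per the labels' protocols. Alignment software STAR 2.7.11b, the assembler StringTie 2.1.3b and the mm39 build are listed in the submitters' processing notes. Annotation release, strand setting and read length are not given in the sources used. The gene tables give coverage, FPKM and TPM, per the file headers. TPM as deposited counts here as a score, because its column lists assembled loci, which sum to the TPM total, beside annotated genes, which repeat most of that signal. The annotated rows were used. FPKM deposited by the authors served, with the coverage signal deposited by the authors, for the aligned depth, and coverage also for an alternative. The tables hold no read counts, hence no counting intervals or floors are given, and an annotated gene's value depends on how StringTie shares reads among overlapping transcripts.

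Rows sharing a gene ID were added up, and libraries were scaled by median ratios (factors 0.984 to 1.04). Genes reaching a TPM of 1 in 2 or more of the 5 libraries were tested on log2(scaled TPM + 1), a scale that understates the change of low genes, with limma 3.58.1 in R 4.3.3, an intensity trend and Benjamini-Hochberg adjustment (threshold 0.05, two-sided), in a fit tested on simulated data. For Cebpa an exact permutation test was added. Gene types and snoRNA sequences came from GENCODE M21, promoters from RefSeq, both on another build and matched by ID or symbol, not by position.

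The members, 17 gene lists and motifs were chosen with earlier results of these data known. Named genes are the 8 hosts, Cebpa, their tested neighbours within 5 kb, up to 3 genes per related list with the smallest p past the threshold, and the 5 genes of most similar profile with a mean TPM of at least 5. A gene that the rule takes is not reported here. Foxp3, Ddx3y, Xist, Hspa1a, Nop58, Nr3c1, Dusp1, Sgk1, Per1, Hspa8, Gnl3, Mir17hg, Pnrc2 and the snoRNA rows were named after their values were seen. So were Rps6kb1 and Eif4ebp1. The alternatives were 16 other settings or left-out libraries and, added after seeing the data, coverage per base and WT replicate 3 as the only WT library. Figures used matplotlib 3.10.9.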

Additional observations from a re-analysis of the deposited data

How the results depend on the processing

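The host genes called higher numbered 1, and 0 with no filter on low values, with assembled loci in place of annotated rows, and with WT replicate 3 alone as the WT group (chosen after seeing the data), against 2 with array weights (Snhg6 joined), with no trend (Snhg3 joined) and with the replicate block (Snhg8 joined, 0.78, limma adjusted p = 0.0440). With coverage per base, also chosen after seeing the data, Gas5 passed and Snhg1 did not (1.02, limma adjusted p = 0.0601). With a library left out it was 0 to 3. None was called lower under any of the 18 alternatives. Over all genes, 1614 were higher and 1596 lower, against 930 and 629 with no filter, 2575 and 2440 with array weights, and 1014 and 647 with WT replicate 3 alone as the WT group, and 1050 lower with the replicate block. With a library left out they were 5 to 2177 higher and 18 to 1825 lower, the lowest without Cebpa_KO replicate 2, where the lone Cebpa_KO library was assumed to vary like the others. Cebpa was -3.54 to -3.27 with a library left out, -4.79 with a pseudocount of 0.1 and -1.83 with a pseudocount of 5. Signs turned for Zfas1 (-0.043 without WT replicate 2, -0.036 without Cebpa_KO replicate 1, within a leave-one-out range that reached 0.064, and -0.036 with WT replicate 3 alone as the WT group), Snhg8 (-0.196 with WT replicate 3 alone as the WT group), Snhg3 (-1.33) and Phactr4 (0.637) with assembled loci, and Sgk3 (-1.421 to 0.493 with a library left out, highest without Cebpa_KO replicate 2); the cause was not tested. The replicate numbers name libraries and are not stated to pair them. In the replicate block, WT replicate 3 is alone in its number and adds nothing to the estimated group difference. The fold changes of that setting were thus near those without WT replicate 3, at 0.78 and 0.77 for Snhg8. Deviations of same-numbered libraries from their group means correlated at -0.179 and 0.269 over genes. With 2 Cebpa_KO libraries these deviations are exact opposites of each other, so the signs cannot show whether libraries are paired. With 3 and 2 libraries, and no counts, small differences of hosts near a TPM of 1, such as Snhg3, could not be settled.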
